A study of Mus musculus with 2 samples.

Results

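The genes that write, copy and remove cytosine methylation were examined in long-term hematopoietic stem cells (LT-HSCs) of aged mice. Control mice were compared with mice given an induced deletion of p38α, a stress-activated MAP kinase encoded by *Mapk14*. There were 9 members: the methyltransferases *Dnmt1*, *Dnmt3a* and *Dnmt3b*, the maintenance cofactor *Uhrf1*, the dioxygenases *Tet1*, *Tet2* and *Tet3*, and the isocitrate dehydrogenases *Idh1* and *Idh2*. They were taken by gene name, whatever their values, and cover 18 of the 55662 probes on the array and 9 of its 22554 named genes. RNA of LT-HSCs from the bone marrow of 2-year-old C57BL/6J mice was hybridized to single-colour Agilent arrays, 1 array per genotype. The labels give the sorted cells as CD150+CD48-Flt3-CD34- LSK, the methods add CD41-, and the design text names CD34 and Flt3 alone. The array labelled p38KO came from CAG-CreERT2 p38α flox/flox mice that had received tamoxifen (TAM) at about 1 year of age and were analyzed 1 year later. Its CAG promoter is active in nearly all tissues, so deletion was not limited to blood cells. The wild-type array came from age-matched controls, which the methods describe as TAM-injected Cre(-) p38α fl/fl mice, so that both groups carried floxed alleles and both received TAM. The number of mice behind each array is not given in the sources used here, and both sexes were used in the study.

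Methylation of cytosine in CpG pairs is set on unmethylated DNA by DNMT3A and DNMT3B and is copied onto the new strand after replication by DNMT1, which UHRF1 brings to half-methylated sites. The TET enzymes oxidize the methyl group, which leads to its loss, and they need 2-oxoglutarate, iron and ascorbate. IDH1 in the cytosol and IDH2 in mitochondria make 2-oxoglutarate from isocitrate. In blood, loss of DNMT3A or TET2 lets stem cell clones expand with age, and altered forms of IDH1 and IDH2 make a product that inhibits the TET enzymes. *Dnmt3a* and *Dnmt3b* are also on the study's list of genes that mark young HSCs.

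Each probe is a single 60-base oligonucleotide, and 5 of the 9 genes were covered by more than 1, so a value belongs to the stretch of transcript that the probe reads. The 6 probes printed here are those on which the comparisons between or within genes turn, as the array files give them, 5′ to 3′ along the transcript. Capitals mark the stop codon where the probe crosses the end of the coding sequence, and positions are on build mm9. The *Dnmt1* and *Uhrf1* probes align to longer stretches of genome than their own length (369 and 654 bases), so each crosses an intron and reads spliced RNA. The *Dnmt3b* probe runs 22 bases past the stop codon and the *Idh1* probe runs 4 bases past it.
Dnmt1, chr9:20711973-20712341, minus strand: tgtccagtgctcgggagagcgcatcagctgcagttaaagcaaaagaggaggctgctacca
Dnmt3b, chr2:153512098-153512157, plus strand: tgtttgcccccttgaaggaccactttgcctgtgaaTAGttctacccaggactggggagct
Uhrf1, chr17:56451668-56452321, plus strand: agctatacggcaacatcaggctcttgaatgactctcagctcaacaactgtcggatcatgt
Tet3, chr6:83352743-83352802, minus strand: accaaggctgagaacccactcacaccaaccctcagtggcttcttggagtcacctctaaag
Tet3, chr6:83318731-83318790, minus strand: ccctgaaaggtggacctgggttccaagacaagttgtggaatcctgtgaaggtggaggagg
Idh1, chr1:65206035-65206094, minus strand: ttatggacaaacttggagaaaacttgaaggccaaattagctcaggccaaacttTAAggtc

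Signals below are log2 intensities relative to the 75th percentile of the same array, and differences are the array labelled p38KO minus the wild-type array. With 1 array per genotype there is no spread between mice, no test was possible, and each difference compares these 2 arrays. The only error the arrays give is technical. Probes spotted repeatedly gave a standard deviation (SD) for a difference between single spots of 0.09 for the brightest probes (signal above 1), 0.12 from -1 to 1, 0.22 from -3 to -1 and 0.56 below -3. The scanner software's own error model gives 0.20 to 0.21 for the members brighter than -3 on both arrays. A signal counts as well above background by the scanner's own test. Both arrays lay on the same slide, 67.9% of probes on the wild-type array and 69.0% on the array labelled p38KO were well above background, and 0 spots were saturated.

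The targeted gene did not set the arrays apart. *Mapk14* was read by 2 probes, with signals of 2.34 and 2.31 (wild-type, then p38KO) at one and 2.08 and 2.03 at the other. Whether these probes lie within the deleted part of the gene is not given in the sources used here, so they do not check the label, and every direction below rests on it. The study tested the deletion by genomic PCR in 2-year-old mice of this model, which is not part of the array data. The genes of the sort gate *Kit* (5.66 and 5.57), *Ly6a*, which encodes Sca-1 (2.15 and 1.37), and *Slamf1*, which encodes CD150 (-1.26 and -2.08), were well above background on both arrays. So were those for proteins the sort selected against, among them *Cd34* (2.81 and 2.67), *Cd48* (-2.06 and -0.69) and *Flt3* (-2.31 and -1.95).

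LT-HSCs of both genotypes gave signal for the whole set of writers and erasers. All 18 probes were detected, that is, well above background on one or both arrays, and 17 of them on both. The signal was lower on the array labelled p38KO at 10 probes and higher at 8, where 49.6% of all 40396 measured probes were lower and 50.4% higher. At least 2-fold lower were 2 of the 18 (11.1%), beside 7.4% of all measured probes, and at least 2-fold higher was 1 (5.56%), beside 6.33%. Of all probes detected on both arrays, 5.52% were at least 2-fold lower and 5.01% higher by as much. These shares depend on brightness: for probes with a mean signal above 1 they were 1.42% and 1.39%, and from -1 to 1 they were 4.43% and 3.89%. The members' shares lie near the backgrounds over all probes, so their number says nothing particular about them. The 2 lower probes are that of *Idh1* and the 3′-most of *Tet3*, and the higher probe reads *Tet2*. The other 15 probes stayed within 2-fold. Over all measured probes the quartiles of the difference were -0.38 and 0.41, so differences larger than the technical errors given above were common. The share of all probes past those errors was not computed. At the members the difference was larger than the spot SD at that brightness for 17 probes and larger than the scanner's error for 14. Without the share over all probes, these counts say nothing particular about the members. The 4 that fell short of the scanner's error were the single probes of *Dnmt1* and *Idh2*, the upstream probe of *Tet1* and the *Tet2* probe counted as 2-fold higher, whose bound of 1.02 on the log2 scale lies under its error of 1.12.

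**Figure D1:**
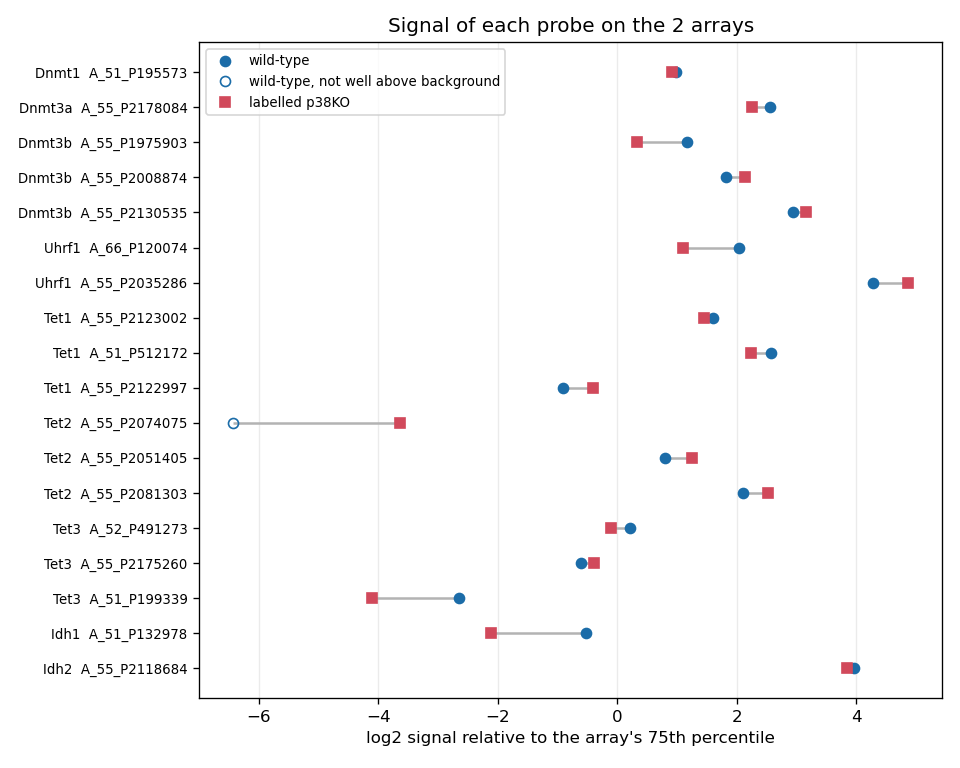
Signal of each of the 18 probes on the wild-type array (circles) and on the array labelled p38KO (squares), as log2 intensity relative to the array's 75th percentile, with a line joining the values of a probe. Most pairs lie close together, *Idh1* and the last *Tet3* probe lie lower on the array labelled p38KO, and the open circle at -6.43 is the *Tet2* probe that was not well above background on the wild-type array.

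*Dnmt1*, the maintenance methyltransferase, was nearly level between the arrays. Its probe gave 0.99 on the wild-type array and 0.92 on the array labelled p38KO, a difference of -0.07 that is smaller than the spot SD of 0.12. *Dnmt3a*, a de novo methyltransferase that stem cells need to differentiate, was read at chr12:3914320-3914379 with 2.55 and 2.26. It was 1.22-fold lower on the array labelled p38KO, a difference of -0.29 with a spot SD of 0.09. That difference lies within the quartiles over all measured probes (-0.38 and 0.41), and a single probe reads the gene.

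The other de novo enzyme, *Dnmt3b*, went in both directions within 1.305 kb. The probe across its stop codon gave 1.18 on the wild-type array and 0.32 on the array labelled p38KO, 1.80-fold lower. The next probe downstream (chr2:153512991-153513050) gave 1.82 and 2.14, a difference of 0.32. The last (chr2:153513403-153513462), the brightest of the gene, gave 2.94 and 3.17, a difference of 0.23. The upstream probe was thus lower and both downstream probes were higher, each by more than the spot SD. That SD covers repeat spots within an array and not the spread between arrays. Both downstream differences lie within the quartiles over all measured probes (-0.38 and 0.41). On these 2 arrays the direction for *Dnmt3b* depends on the probe.

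*Uhrf1*, whose protein recognizes half-methylated CpG pairs and recruits DNMT1, showed the same split over a longer distance. The probe across the intron gave 2.04 on the wild-type array and 1.11 on the array labelled p38KO, 1.91-fold lower with a spot SD of 0.09 on the log2 scale. The probe that lies 10.508 kb downstream, at chr17:56462770-56462829, gave 4.29 and 4.87. The differences of -0.94 and 0.58 are 1.52 apart, and both lie well outside the spot SD, which does not cover the spread between arrays.

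*Tet1*, the eraser best known from pluripotent and germ cells, was lower at 2 probes and higher at the third. The probe farthest upstream (chr10:62301856-62301915) gave 1.60 and 1.46, a difference of -0.14, which is within the scanner's error. The brightest probe (chr10:62276042-62276101) gave 2.57 and 2.24, a difference of -0.33. The last probe, 1.594 kb farther on at chr10:62274448-62274507, gave -0.91 and -0.41, a difference of 0.50. The direction for *Tet1* therefore turns on the probe chosen.

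*Tet2*, the eraser whose loss is common in clonal hematopoiesis, was higher at all of its probes. It was the only gene with several probes in which those detected on both arrays pointed the same way. Its brightest probe gave 2.10 on the wild-type array and 2.52 on the array labelled p38KO, 1.34-fold higher. The probe beside it, 0.154 kb upstream, gave 0.80 and 1.25, 1.36-fold higher. These neighbouring probes lie close together on the transcript and are not independent readings. The third, 49.67 kb upstream at chr3:133176421-133176479, is listed under a cDNA clone and not under a RefSeq transcript. It was not well above background on the wild-type array (intensity 1.66) and was on the array labelled p38KO (9.28), which makes it at least 2.03-fold higher against the lowest signal counted as detected. Since it was detected on the array labelled p38KO alone, its direction was largely set by the filter and adds no support. Among probes as dim as this one (signal below -3), 11.6% of all were at least 2-fold higher.

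*Tet3*, the eraser that acts on the paternal genome of the zygote, was lower at its outer probes and slightly higher at the middle one. The upstream probe, its brightest, gave 0.21 and -0.10, a difference of -0.31. The middle probe (chr6:83319720-83319779) gave -0.60 and -0.38, a difference of 0.22. The last, 34.012 kb downstream of the first, gave -2.65 and -4.10, 2.74-fold lower. That probe was dim (intensities 22.8 and 6.69), its spot SD was 0.56, and 13.5% of all probes below -3 were at least 2-fold lower. With normexp, another background correction, its difference shrank from -1.45 to -0.12.

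**Figure D2:**
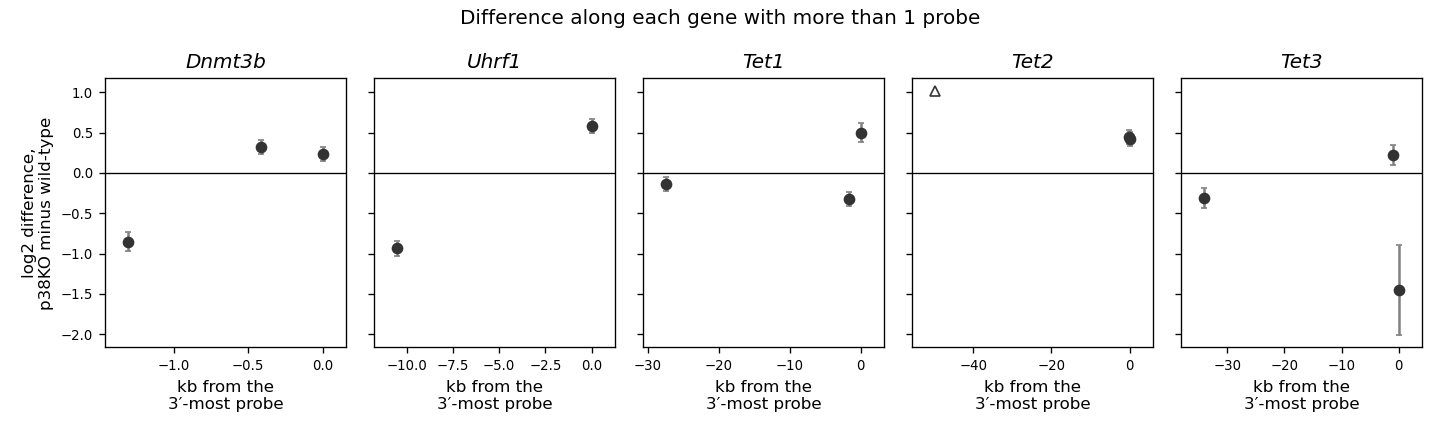
Log2 difference (p38KO minus wild-type) of each probe against its distance in kb from the 3′-most probe of the gene, for the 5 genes with more than 1 probe; bars are the spot SD and the open triangle is a lower bound. In *Dnmt3b* and *Uhrf1* the probe farthest upstream lies at -0.85 and -0.94 and the 3′-most probe above 0, while in *Tet3* the 3′-most probe lies lowest, at -1.45.

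Disagreement between probes of a gene was common on these arrays. Of the 5 members with several probes, 4 had probes of both signs, and of the 4493 genes with at least 2 probes well above background on both arrays, 46.7% did. Differences at least 1 log2 unit apart within a gene were seen in *Dnmt3b* (1.17), *Uhrf1* (1.52) and *Tet3* (1.67), and in 21.5% of the 4493 genes. In genes whose probes were all bright (mean signal above 1), which leaves 623 genes, the share was 4.65%. *Uhrf1* belongs to that bright class, and the stop-codon probe of *Dnmt3b*, at a mean of 0.75, lies just under it. The upstream-most probe lay below the 3′-most probe in difference by at least 1 unit in *Dnmt3b* and *Uhrf1* and in 9.79% of the 4493 genes, and it lay below by any amount in 55.3%. With normexp background correction the *Dnmt3b* probes ran from -0.69 to 0.27 and the *Tet3* probes from -0.19 to 0.15, less than 1 unit apart. Those of *Uhrf1* ran from -0.87 to 0.54.

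*Idh1*, the cytosolic enzyme, showed the largest measured difference of the set. Its probe at the end of the coding sequence gave an intensity of 99.6 on the wild-type array and 26.6 on the array labelled p38KO, or -0.53 and -2.11 relative to the 75th percentiles. It was 3-fold lower, a difference of -1.59 with a spot SD of 0.22. Among all probes with a mean signal from -3 to -1, the class of this probe, 9.35% were at least 2-fold lower. Under normexp the difference was -0.72, in the same direction but within 2-fold. A single probe reads *Idh1*, so the value has no second reading. *Idh2*, the mitochondrial enzyme, was bright and level, with 3.96 and 3.85 at chr7:87239736-87239795. Its difference of -0.12 lies within the scanner's error of 0.20.

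**Figure D3:**
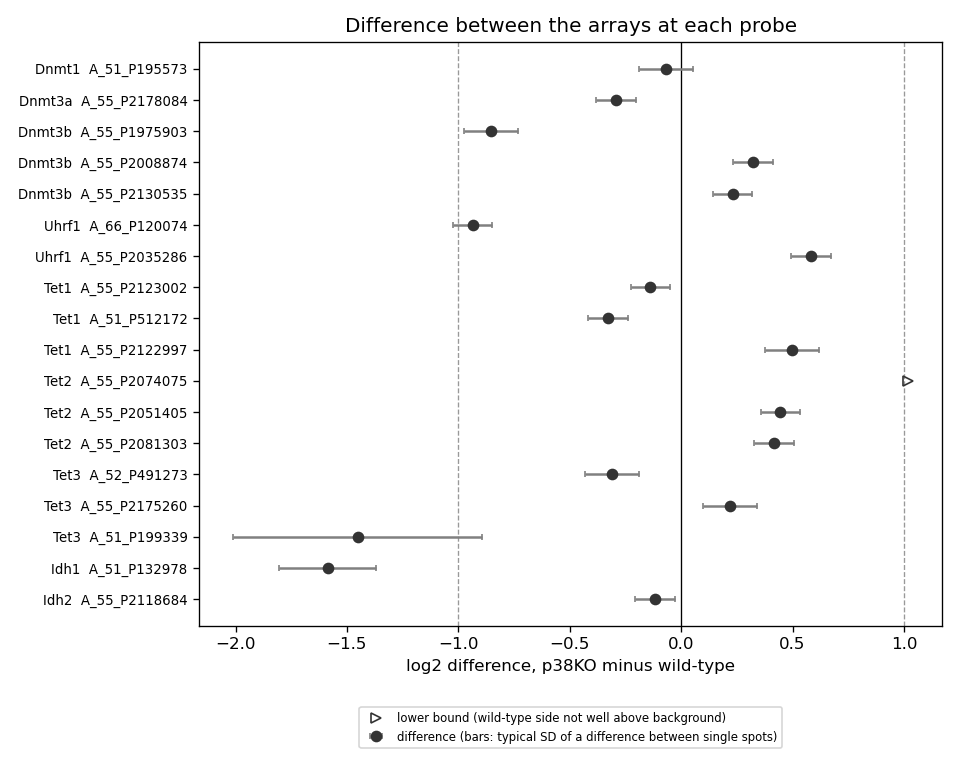
Log2 difference (p38KO minus wild-type) at each of the 18 probes, with bars for the spot SD at that brightness and dashed lines at 2-fold; the open triangle is a lower bound. *Idh1* at -1.59 and the last *Tet3* probe at -1.45 lie past the lower line, the bound for *Tet2* lies just past the upper line, and *Dnmt1* is the only probe whose bar crosses 0.

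At the brightest probe of each gene, 6 of the 9 genes were lower on the array labelled p38KO (*Dnmt1*, *Dnmt3a*, *Tet1*, *Tet3*, *Idh1* and *Idh2*) and 3 were higher (*Dnmt3b*, *Uhrf1* and *Tet2*). Over all 17175 measured genes 52.4% were lower and 47.6% higher. Only *Idh1* reached 2-fold. Of all genes, 6.63% were lower by 2-fold or more and 4.11% were higher by as much. The median difference of the 9 genes was -0.12, beside -0.03 over all genes.

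Of 64 other genes of the pathway, in 5 lists, 60 were measured, 33 of them lower and 27 higher, with a median difference of -0.02. At least 2-fold lower were 2, *Ahcyl2* and *Slc23a2*, and at least 2-fold higher were 0. The lists are small, and over all genes 52.4% were lower and 47.6% higher, with quartiles of the difference at -0.38 and 0.33. Each list's median lay within those quartiles. Of the partners of the writers 6 of 9 measured were higher, with a median of 0.27. Among them were *Dnmt3l*, the catalytically inactive partner of the de novo enzymes (-3.74 and -2.85, a difference of 0.88 at a dim probe), and *Hells*, a chromatin remodeler needed for methylation of repeats (0.53). *Dmap1*, which binds DNMT1 (-0.61), and *Cdca7*, which works with HELLS (-0.11), were lower.

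Readers of methylated CpG pairs were lower at 6 of 8, with a median of -0.15. *Zbtb38* (-0.57) and *Mbd2* (-0.33) were lowest, and *Mbd1* (0.23) and *Zbtb33* (0.02) were the ones above 0. The *Mbd1* probes ranged from -1.29 to 0.26 and those of *Zbtb38* from -0.60 to 0.07, so both directions depend on the probe. The TET partners and the base excision genes that replace oxidized cytosine were balanced, 7 lower and 8 higher of 15 measured, with a median of 0.01. *Cxxc5*, a CXXC protein that binds TET2 (-0.70), and *Gadd45b* (-0.37) were lowest. *Neil3*, a DNA glycosylase (0.69), and *Gadd45a* (0.18) were highest.

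In the supply of the methyl donor S-adenosylmethionine, 8 of 13 measured genes were lower, with a median of -0.15. *Ahcyl2*, a relative of the enzyme that clears S-adenosylhomocysteine, went from 1.94 to 0.66, 2.43-fold lower, and its probes ranged from -1.30 to -0.03. *Mtap*, which recycles methylthioadenosine, was 1.79-fold lower (-0.84). The folate enzyme *Mthfd1* was higher (0.55). Genes for the supply of 2-oxoglutarate and ascorbate to the TET enzymes were lower at 9 of 15, with a median of -0.05. *Idh3b*, a subunit of the NAD-dependent mitochondrial isocitrate dehydrogenase, was 1.96-fold lower (3.09 and 2.12), while *Idh3a*, the catalytic subunit of the same enzyme, was 1.35-fold higher (1.63 and 2.07). The ascorbate transporter *Slc23a2* was 2.06-fold lower at its brightest probe and higher by 1.23 on the log2 scale at its other, and *Slc23a1* was higher (0.74) at a dim probe.

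**Figure D4:**
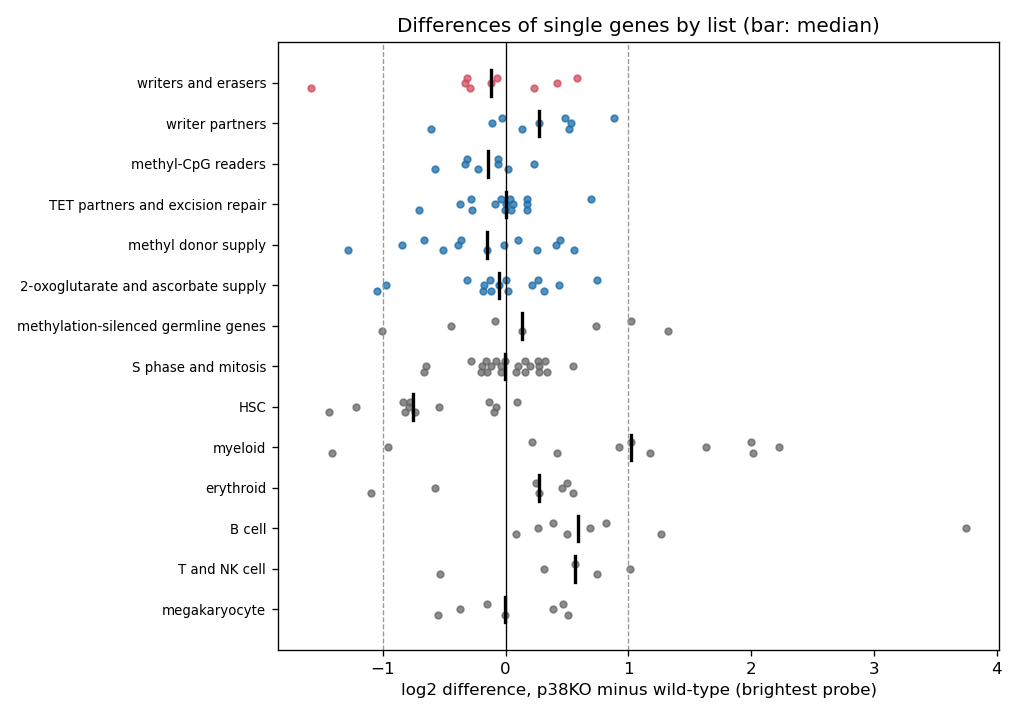
Log2 difference (p38KO minus wild-type) of each measured gene at its brightest probe, by list, with a bar at the list's median and dashed lines at 2-fold. The 9 writers and erasers scatter about a median of -0.12 with *Idh1* at -1.59, and the 5 pathway lists have medians from -0.15 to 0.27. The medians of the HSC, myeloid, B cell, and T and NK cell markers lie farther from 0 (-0.76, 1.02, 0.59 and 0.57).

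Germline genes that somatic cells usually keep silent through promoter methylation were also read. Of 12, 7 were measured and only 4 of them were well above background on both arrays. *Tex101* (-3.19 and -1.86) and *Brdt* (-2.99 and -1.97) were 2.50-fold and 2.03-fold higher on the array labelled p38KO, *Sycp3* was level (-0.08), and *Ddx4* was at least 2.01-fold lower. *Brdt* was higher by 0.16 on the log2 scale at its other probe. *Taf7l*, the brightest of the list, was 1.66-fold higher (1.84 and 2.58). In all, 3 of the 7 were lower and 4 higher. Apart from *Taf7l* these signals are dim, and among probes below -3 or from -3 to -1 between 7.71% and 13.5% passed 2-fold in either direction.

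*Dnmt1* and *Uhrf1* are normally made as cells replicate DNA, so genes of S phase and mitosis were set beside them. All 23 were measured, 12 lower and 11 higher, 0 of them by 2-fold, with a median of -0.01. *Ccnb1*, the cyclin of mitosis (-0.67), and *Gins2*, of the replicative helicase (-0.65), were lowest. *Cdk1* (0.55) and *Ccna2* (0.34), the kinase and cyclin of late S phase and mitosis, were highest. *Cdk1* had probes from -0.29 to 0.55.

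Markers of other cells differed between the arrays along with these genes. Of 12 HSC markers 11 were lower on the array labelled p38KO, with a median of -0.76 and a summed signal of 7.43 on the wild-type array and 7.09 on the other (log2). *Mecom*, a transcription factor that stem cells need (-1.44), and *Procr*, which encodes the surface marker EPCR (-1.22), were more than 2-fold lower. The *Mecom* probes ranged from -1.44 to 0.61, so its direction depends on the probe. Of 11 myeloid markers 9 were higher, with summed signals of 7.77 and 8.22. Most of that sum came from *Itgam* (7.50 and 7.92), whose probes ranged from -0.42 to 0.88. Among the 11 markers, *Ltf* (2.23) and *S100a9* (2.01) of mature granulocytes were higher and *Elane* (-1.41) and *Lyz2* (-0.96) were lower. All 8 B cell markers were higher, 6 of them measured on both arrays, with summed signals of 1.93 and 4.24. The 4.24 came mostly from *Jchain*, of plasma cells, which was 13.5-fold higher, and *Cd79a* was 2.40-fold higher. *Ms4a1* and *Ebf1* were well above background on the array labelled p38KO only, so their direction was largely set by the filter. Of 9 T and NK cell markers 5 were measured, 4 of them higher, with summed signals of 4.11 and 4.53, and *Cd3e* was 2.02-fold higher. Most of that sum came from *Nkg7* (3.54 and 3.86), whose probes ranged from -0.04 to 0.32. *Cd3d*, *Cd3g*, *Cd8b1* and *Ncr1* were below detection on both arrays. Of 7 measured erythroid markers 5 were higher (4.04 and 4.48), with *Gata1* at 0.55, *Klf1* at 0.50, *Hba-a1* at -0.57 and *Hbb-bt* at -1.10. The 7 megakaryocyte markers had a median of 0.00 (6.65 and 6.47), from *Ppbp* (0.51) and *Gp9* (0.47) to *Itga2b* (-0.37) and *Vwf* (-0.55). In bulk RNA, fewer cells of a type and less RNA per cell cannot be told apart. The part of these markers in the values of the writers and erasers was not tested.

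The differences at the members were set against 10 other ways of processing the arrays. All 18 probes kept their sign in every one that gave them a value. The sizes moved most at *Idh1* and at the dim probes of *Tet2* and *Tet3*.

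**Figure D5:**
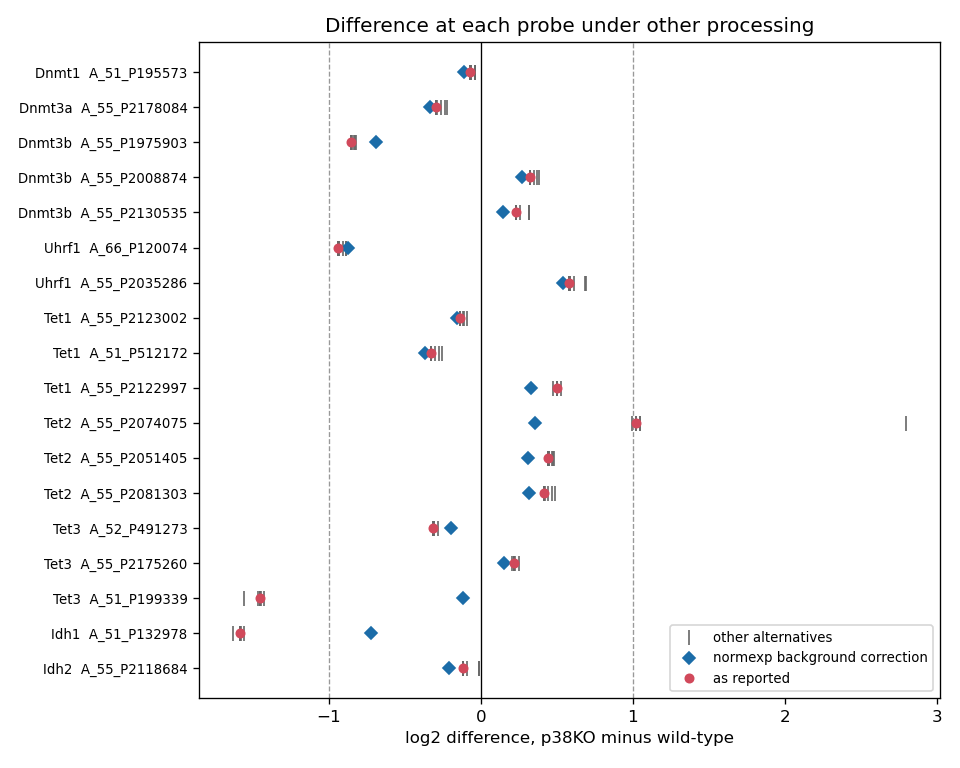
Log2 difference (p38KO minus wild-type) at each of the 18 probes as reported (red circles), with normexp background correction (blue diamonds) and in the other alternatives (grey ticks); dashed lines mark 2-fold. Normexp brings *Idh1* to -0.72, the last *Tet3* probe to -0.12 and the dim *Tet2* probe to 0.36, and the other 15 probes move less.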

How the data were processed

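The authors deposited scanner intensities of 2 single-colour arrays (1 per genotype), read with Agilent Feature Extraction 11.5.1.1 (named in the submitters' processing notes), background-subtracted and not normalized between arrays. They also deposited a table of log2 values, each column being the log2 signal minus 1 constant (7.16 and 6.84), for 35795 probes. From the intensities, control and outlier spots were left out, log2 signals were averaged over the spots of a probe (all of them must be well above background for the probe to count), and each array's 75th percentile was subtracted. Signals below detection were set to the lowest detected signal of their array (-4.65 wild-type, -4.72 p38KO) where they lay under it, so such folds are lower bounds. The brightest probe stood for a gene. In each list the 2 largest falls and rises were named, besides lower bounds of at least 2-fold. The genes of the sort gate, the dim markers, *Taf7l*, *Ms4a1*, *Ebf1*, *Itgam* and *Nkg7* were named outside that rule. Some genes of the lists are not reported here. The members and lists were chosen with earlier results of these data known. With 1 array per genotype no test was run, and the number of arrays limits the precision. The calculation was tested on simulated data. Python 3.11.15, numpy 2.4.6, pandas 2.3.3, R 4.3.3 and limma 3.58.1 were used.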

Additional observations from a re-analysis of the deposited data

How the results depend on the processing

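The values were recomputed with quantile normalization, with centring on the median or on the 75th percentile of probes detected on both arrays, with a loess between the arrays (span 0.3), with normexp (offset 50), from the authors' values, with outlier spots kept, with probes detected on both arrays alone, with no filter, and with a gene's probes averaged. The member probes at least 2-fold lower numbered 0 under normexp (2 as reported) and remained 2 in the others that were run on them. The member probes at least 2-fold higher numbered 0 under quantile normalization, under normexp, with the authors' values and with probes detected on both arrays alone (1 as reported), where the last 2 leave out the dim *Tet2* probe by construction. That probe's bound was 1.00 with quantile normalization and 0.36 with normexp, and with no filter, which also takes its signal below detection as measured, its difference was 2.80. The median of the 9 genes ran from -0.19 to -0.04, that of the pathway genes from -0.07 to 0.05, that of the S phase and mitosis genes from -0.01 to 0.09, and *Mapk14* from -0.09 to 0.03, so the last 3 crossed 0. No paired analysis was possible because each genotype has 1 array, and no replicate could be left out for the same reason. Precision is limited by the single array per genotype and, for dim probes, by signal over background.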
